A study of Nicotiana tabacum with 12 samples.

Results

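Plastid-type sugar-phosphate translocators and a pyruvate, phosphate dikinase were followed through 12 RNA-seq libraries of tobacco (Nicotiana tabacum) leaves at the seedling stage. The 4 genes described are Nitab4.5_0001884g0050, Nitab4.5_0000006g0100, Nitab4.5_0002137g0140 and Nitab4.5_0000059g0230, of 69500 genes listed. They were chosen by their measured differences: Nitab4.5_0001884g0050 between Q18 and K326, and the other 3 genes between YOE and KY. All 4 passed the filter on low values, the translocators Nitab4.5_0000006g0100 and Nitab4.5_0002137g0140 through the groups other than KY. Those differences are therefore given as descriptions with no test, and a test is given only in a comparison whose libraries took no part in the choice.

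The 4 groups held 3 libraries each: KY wild type, K326 wild type, a knockout called Q18 and an overexpression line called YOE. The study asked how the gene NtCISZOG acts on leaf chlorophyll, and its design text names the mutants K326-gk-8 and KY-OE-31. No treatment is given, and neither the promoter of the overexpression construct nor the number of plants per library is given in the sources used here. Q18 was compared with K326 and YOE with KY after the line names in the design text, since the sample labels do not state the parent of either line. The labels do not tie replicates to separate plants; p-values therefore cover only the spread among these libraries, and that spread may be technical. NtCISZOG has no name in the table, so the targeted gene could not be checked.

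Translocators of the plastid inner envelope exchange phosphorylated sugars or phosphoenolpyruvate for phosphate. The triose-phosphate translocator exports photosynthetic carbon in the light, and the phosphoenolpyruvate translocator feeds the shikimate pathway inside the plastid. Pyruvate, phosphate dikinase converts pyruvate, ATP and phosphate into phosphoenolpyruvate, AMP and pyrophosphate, in both directions; it is best known from C4 photosynthesis and, in Arabidopsis, from nitrogen remobilisation in senescing leaves. The table describes genes by protein domains. Nitab4.5_0000006g0100 and Nitab4.5_0002137g0140 are described as triose phosphate/phosphoenolpyruvate translocators, a description that does not say which of these substrates is carried. Nitab4.5_0001884g0050 has only the triose-phosphate transporter domain, which nucleotide-sugar carriers of the Golgi also hold, so its place in the plastid is not shown by the description. Nitab4.5_0000059g0230 has the domains of pyruvate, phosphate dikinase with its phosphoenolpyruvate-utilising parts.

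Values are read as TPM, which gives a gene's share of the transcripts after correction for its length. Their sum per library ran from 334759 to 676862, lowest in YOE replicate 2. TPM over a full gene set has the same sum in every library, so these values may be in another unit or from an incomplete set. Neither TPM nor such values keep read depth, so no counting error can be given. The median log2 difference over all tested genes was 0.24 for Q18 minus K326, -0.11 for YOE minus KY, 0.39 for K326 minus KY and -0.51 for YOE minus K326. After a scaling that sets the typical gene to the same level in each library (median scaling), these medians were 0.02, -0.01, 0.02 and -0.02, and results are given on both scales where the scales differ. Leaf mesophyll genes (107 chlorophyll a-b binding and Rubisco small subunit genes, 3 of them at 0 throughout) summed to 31900 to 67792 TPM per library. The pollen and flower list (62 genes, 17 at 0 throughout) summed to 414 to 521 TPM in KY, 684 to 995 in K326, 764 to 904 in Q18 and 508 to 725 in YOE. After median scaling these ranges were 563 to 612, 635 to 851, 507 to 731 and 774 to 1003. The part of this list in differences between groups was not tested. No gene matched the root list. The phloem list (27 phloem protein 2 and sieve element occlusion genes, 2 at 0 throughout) summed to 355 to 404 TPM in KY, 279 to 368 in K326, 511 to 595 in Q18 and 410 to 1171 in YOE.

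Nitab4.5_0001884g0050, the gene with only the transporter domain, was highest in Q18. It stood at 35.0, 43.2 and 38.1 TPM in the Q18 libraries and at 6.44, 12.2 and 9.63 TPM in those of K326. In KY the gene stood at 3.36, 3.14 and 2.76 TPM. In YOE it stood at 3.61, 0.91 and 3.58 TPM. All Q18 libraries lay above all others, all K326 libraries lay above those of KY and YOE, and KY and YOE overlapped. The order of the means was thus Q18 (38.8 ± 4.15 TPM, SD, n = 3), K326 (9.44 ± 2.90), KY (3.09 ± 0.304) and YOE (2.70 ± 1.55), of which the last pair did not differ beyond its spread.

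The mean of Nitab4.5_0001884g0050 was 4.11 times as high in Q18 as in K326, and the lowest Q18 library was 2.86 times the highest of K326. After median scaling the ratio of means was 3.47, with Q18 libraries at 27.5, 28.7 and 31.6 and K326 libraries at 6.97, 9.37 and 8.95. This is the contrast that chose the gene; leaving out each library in turn gave log2 differences from 1.74 to 2.16. The summed phloem list was also higher in every Q18 library than in every K326 library (511 to 595 against 279 to 368 TPM; after scaling, 361 to 492 against 259 to 312), and its part in this difference was not tested. In bulk leaf, more cells of a type and more RNA per cell cannot be told apart.

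YOE and KY took no part in choosing Nitab4.5_0001884g0050. There its log2 difference, YOE minus KY on the log2(TPM + 1) scale, was -0.25 (SE 0.30, 95% interval -0.89 to 0.39), with a limma adjusted p of 0.626 over all 31311 genes tested. In this comparison 6.76% of tested genes were called higher and 11.5% lower at an adjusted p under 0.05, and after median scaling 17.7% and 17.3%. The scaled difference was -0.18 (adjusted p = 0.583). YOE replicate 2, at 0.91 TPM, set the sign: without it the difference was 0.17 (limma adjusted p = 0.663).

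**Figure D1:**
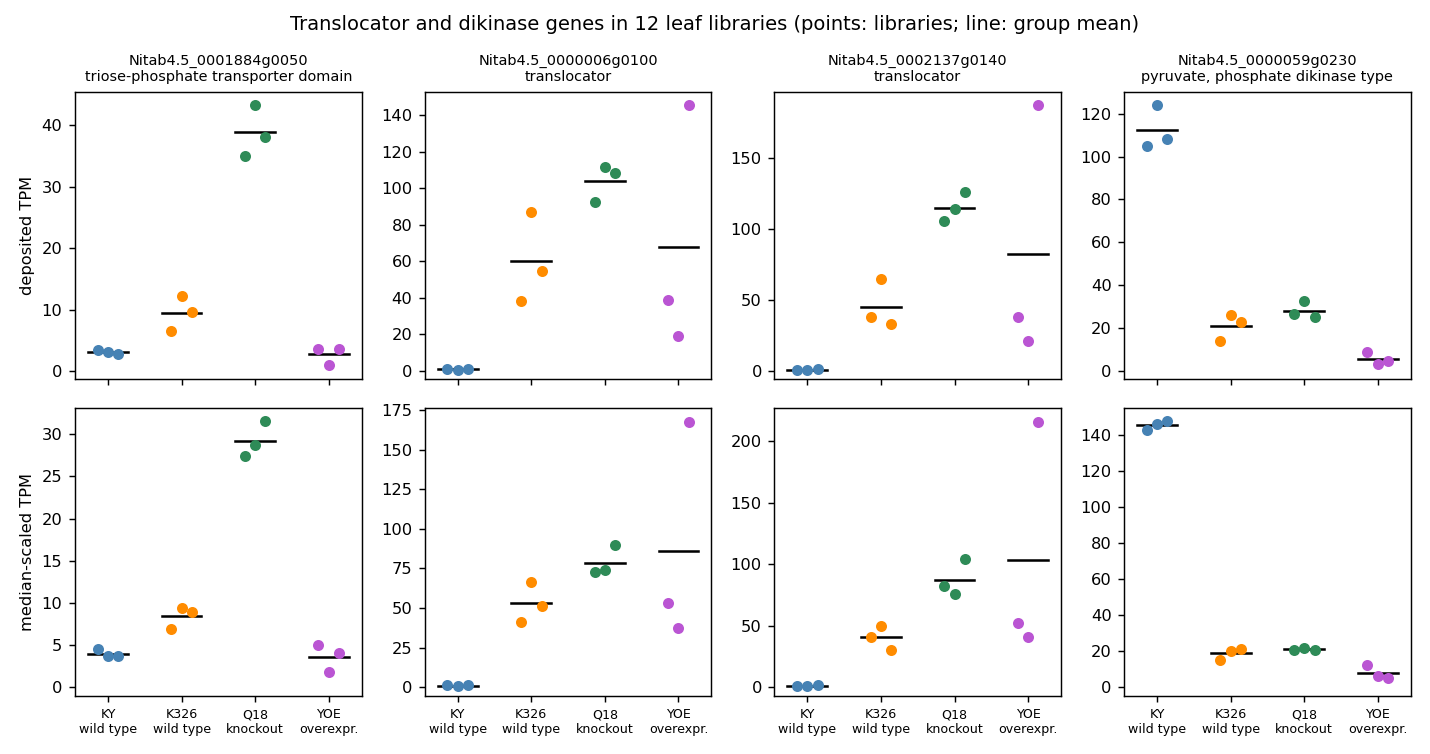
Level of each of the 4 genes in every library, as deposited TPM (upper row) and after median scaling (lower row); points are libraries and lines are group means of 3, on linear axes. Nitab4.5_0001884g0050 was highest in the 3 Q18 libraries, both translocators were lowest in KY, and the dikinase gene was highest in KY.

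The pair described as triose phosphate/phosphoenolpyruvate translocators was near 1 TPM in KY and abundant in every other library. Nitab4.5_0000006g0100 stood at 0.92, 0.72 and 0.95 TPM in KY. In K326 it stood at 38.2, 87.0 and 54.9 TPM, and in Q18 at 92.5, 112 and 108 TPM. In YOE the libraries were far apart, at 38.7, 19.4 and 145 TPM. KY lay below all other libraries, Q18 lay above K326, and YOE overlapped both K326 and Q18.

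Nitab4.5_0002137g0140 followed the same order. It stood at 1.04, 0.93 and 1.27 TPM in KY and at 38.0, 65.1 and 32.9 TPM in K326. It stood at 105, 114 and 126 TPM in Q18. In YOE it stood at 38.0, 21.2 and 187 TPM. Again only KY was separate from every other group, and replicate 3 of YOE was the highest of all 12 libraries for both genes. The means were 1.08 ± 0.173 TPM in KY, 45.3 ± 17.3 in K326, 115 ± 10.3 in Q18 and 82.1 ± 91.3 in YOE (SD, n = 3 each). After median scaling they were 1.41 ± 0.318, 40.5 ± 9.64, 87.4 ± 15 and 103 ± 97.7 in the same order, with the YOE mean highest.

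As a description of the contrast that chose them, YOE minus KY was 4.72 on the log2(TPM + 1) scale for each of these translocators, and the lowest YOE library was 20.4 times the highest of KY for Nitab4.5_0000006g0100 and 16.7 times for Nitab4.5_0002137g0140. With each library left out in turn the log2 difference ran from 3.93 to 5.36 for Nitab4.5_0000006g0100 and from 3.82 to 5.37 for Nitab4.5_0002137g0140. The wild types differed in the same way: K326 minus KY was 4.96 for Nitab4.5_0000006g0100 and 4.42 for Nitab4.5_0002137g0140. That comparison shares the KY libraries with YOE minus KY and is not a separate observation. YOE minus K326 was -0.23 and 0.30 for these genes as deposited, and 0.42 and 0.95 after median scaling. The summed phloem list was 410, 636 and 1171 TPM in YOE replicates 1, 2 and 3, highest in the library where both translocators were highest. Within YOE, however, both translocators were lowest in replicate 2 and the phloem list in replicate 1. After median scaling the phloem list summed to 567, 1234 and 1350 in these replicates, and the translocator pair to 106, 78.7 and 383. In KY the phloem list summed to 355 to 404 TPM, and neither translocator passed 1.27 TPM. The part of the phloem list in these translocator values was not tested.

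Q18 and K326 took no part in choosing these translocators. Q18 minus K326 was 0.86 on the log2(TPM + 1) scale for Nitab4.5_0000006g0100 (SE 0.58, 95% interval -0.42 to 2.14, limma adjusted p = 0.555), although all Q18 libraries lay above all of K326. For Nitab4.5_0002137g0140 it was 1.38 (SE 0.63, 95% interval -0.02 to 2.79, limma adjusted p = 0.555), also with no overlap. In this comparison 0.0128% of the 31311 tested genes were called higher and 0.00639% lower, and after median scaling 0% and 0.0129%, with 2543 and 2104 genes at an unadjusted p under 0.05. Scaled differences were 0.58 (adjusted p = 0.828) for Nitab4.5_0000006g0100 and 1.10 (adjusted p = 0.724) for Nitab4.5_0002137g0140.

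The test shares 1 estimate of spread over all groups, including the wide YOE group. Fitted on the 6 compared libraries alone, Nitab4.5_0002137g0140 had the same difference of 1.38 with an SE of 0.23 and passed the threshold (limma adjusted p = 0.0347), where 0.102% of tested genes were called higher. Nitab4.5_0000006g0100 did not pass in that fit (SE 0.25, limma adjusted p = 0.324). The summed phloem list moved the same way between these groups, as given above, and its part was not tested.

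Both translocators shared their sum nearly evenly in most libraries, though the share of Nitab4.5_0000006g0100 was higher in every K326 library than in every Q18 library. Nitab4.5_0000006g0100 held 42.8 to 46.9% of their summed TPM in KY, 50.1 to 62.5% in K326, 46.2 to 49.5% in Q18 and 43.7 to 50.5% in YOE. Of 15229 candidate genes, Nitab4.5_0002137g0140 was the most like Nitab4.5_0000006g0100 over the 12 libraries (Pearson r = 0.991 of median-scaled log2(TPM + 1), a description). Whether the pair is alike in sequence was not tested, and how reads that match several genes were counted is not given in the sources used here, so the split within the pair is uncertain. The sum was 1.94 ± 0.285 TPM in KY, 105 ± 40.9 in K326, 219 ± 18.9 in Q18 and 150 ± 159 in YOE (SD, n = 3). After median scaling it was 2.54 ± 0.552, 93.5 ± 19.8, 166 ± 24 and 189 ± 169 in the same order. The highest mean was thus in Q18 as deposited and in YOE after scaling, where YOE replicates ranged from 78.7 to 383.

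**Figure D2:**
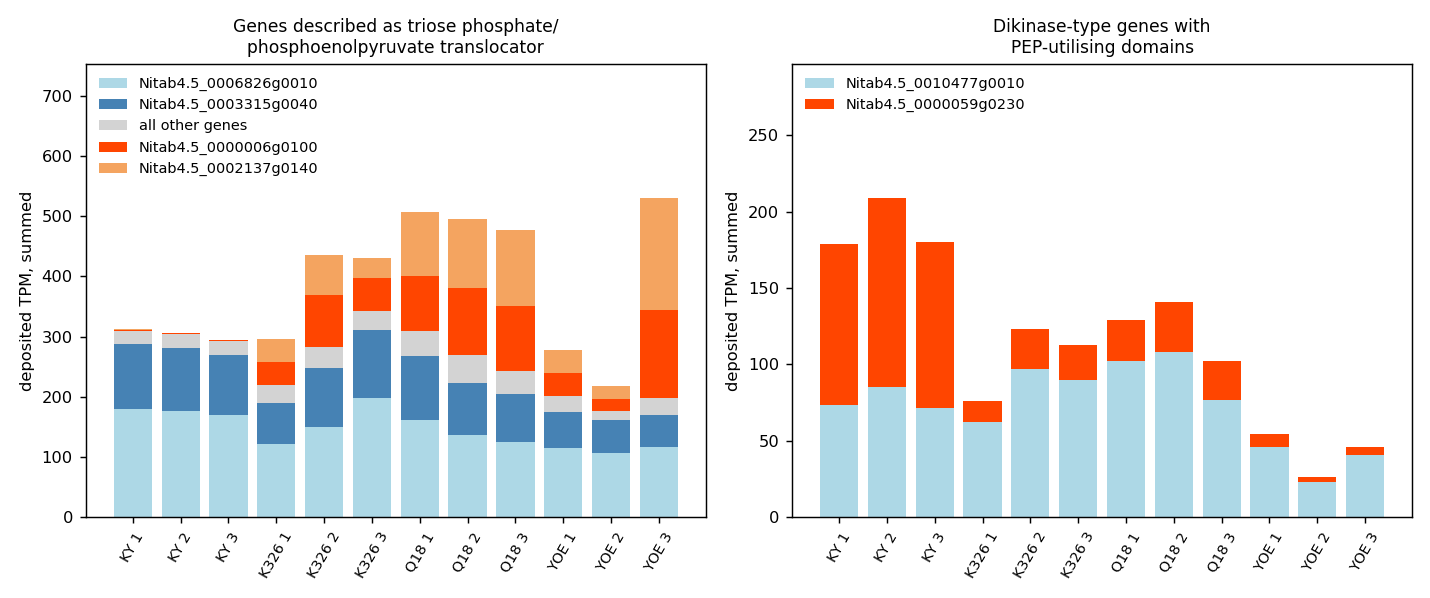
Stacked TPM per library of the 15 genes described as triose phosphate/phosphoenolpyruvate translocators (left) and of the pair of dikinase-type genes with phosphoenolpyruvate-utilising domains (right). The translocators Nitab4.5_0000006g0100 and Nitab4.5_0002137g0140 (red and light orange) were under 1% of the left stack in each KY library, while the dikinase gene Nitab4.5_0000059g0230 (red) was over 50% of the right stack only in KY.

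Other genes with this description were abundant in KY. Another 13 genes carry it, and they summed to 303 ± 8.91 TPM in KY, 282 ± 61.3 in K326, 274 ± 32.8 in Q18 and 192 ± 13.3 in YOE (SD, n = 3). After median scaling these sums were 393 ± 32.1, 258 ± 53.6, 207 ± 32.1 and 283 ± 57.3, so Q18 and not YOE was lowest on that scale. Most of that came from Nitab4.5_0006826g0010 (175 TPM in KY, 156 in K326, 141 in Q18, 112 in YOE) and Nitab4.5_0003315g0040 (105, 93.8, 90.6 and 56.3 TPM in the same order). The pair of translocators thus held 0.538 to 0.753% of all transcripts with this description in KY, 20.4 to 35.0% in K326, 39.1 to 49.0% in Q18 and 18.7 to 62.6% in YOE. With the pair included, the sum over all 15 genes was 305 ± 8.73, 387 ± 78.9, 493 ± 14.7 and 342 ± 166 TPM in KY, K326, Q18 and YOE. After median scaling it was 395 ± 32.5, 351 ± 42.6, 374 ± 39.3 and 473 ± 122, and the order of the groups was not the same.

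In YOE minus KY both abundant genes had differences opposite in sign to the pair, and Nitab4.5_0003315g0040 passed the test on both scales. Nitab4.5_0003315g0040 stood at 108, 106 and 99.7 TPM in KY and 60.4, 54.8 and 53.8 TPM in YOE, a log2 difference of -0.88 (limma adjusted p = 0.00856; after median scaling -0.72, adjusted p = 0.0244). Nitab4.5_0006826g0010 stood at 179, 176 and 170 TPM in KY and 115, 106 and 116 TPM in YOE, a difference of -0.63 (limma adjusted p = 0.0414). After median scaling it was -0.47 and did not pass (adjusted p = 0.11), and it passed in 0 of the 6 fits that left out a KY or YOE library (adjusted p up to 0.134). The YOE and KY libraries of each gene did not overlap as deposited.

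**Figure D3:**
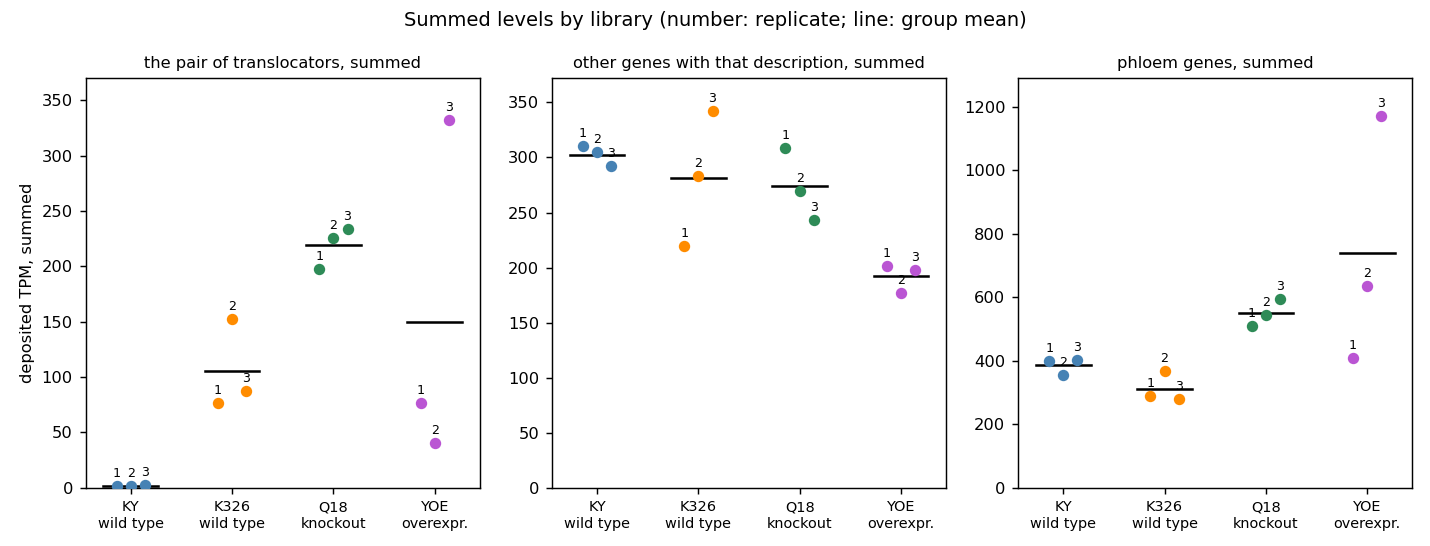
Summed TPM per library of the translocators Nitab4.5_0000006g0100 and Nitab4.5_0002137g0140 (left), of the 13 other genes with their description (middle) and of the 27 phloem genes (right); points carry the replicate number and lines are group means. In KY the pair summed to 1.94 TPM on average and the 13 others to 303 TPM, and YOE replicate 3 was highest for the pair and for the phloem genes. Within YOE, replicate 2 was lowest for the pair and replicate 1 for the phloem genes.

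The wider family with a triose-phosphate transporter or translocator description held 133 genes, of which 15 were at 0 in all libraries. Of the 130 that are not described above, 71 passed the filter on low values and 36 reached a mean of 5 TPM in a group. In Q18 minus K326 limma called 0 of the 71, with 11 at an unadjusted p under 0.05, and their median log2 difference was 0.31 against 0.24 over all tested genes. With 0.0128% of all genes called higher and 0.00639% lower, a count of 0 says nothing about the family. In YOE minus KY 4 of 71 were called higher and 5 lower, where 6.76% and 11.5% of all genes were, with a median of 0.08 against -0.11. After median scaling, 23 of 70 were called higher and 4 lower, where 17.7% and 17.3% of all genes were, with a median of 0.18 against -0.01. The split of calls thus moved with the scale, in this family and over all genes. The family's median lay above that over all genes on both scales.

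The genes called higher in YOE than in KY on both scales and reaching 5 TPM in a group were of the transporter-domain type. Nitab4.5_0001159g0150 stood at 3.09, 3.31 and 3.04 TPM in KY and 3.77, 12.1 and 26.4 TPM in YOE (log2 difference 1.53, limma adjusted p = 0.0348). Nitab4.5_0003963g0030 stood at 2.52, 3.85 and 2.02 TPM in KY and 3.80, 5.52 and 14.7 TPM in YOE (1.08, adjusted p = 0.0335). In both genes YOE replicate 3 was highest, as it was for the pair. Smaller differences were those of Nitab4.5_0000278g0140 (0.77, adjusted p = 0.0233) and Nitab4.5_0000923g0080 (0.74, adjusted p = 0.0479). Nitab4.5_0002957g0030 was lower, at 14.2, 12.4 and 11.5 TPM in KY and 6.28, 5.35 and 7.50 TPM in YOE (-0.90, adjusted p = 0.00451). Without KY replicate 1, KY replicate 3 or YOE replicate 3 the family's count fell from 4 higher and 5 lower to 0 higher and 4 lower, so each of the 4 named genes that were higher lost its call there (adjusted p up to 0.17). Higher calls over all genes fell from 2118 to 1195, 1226 and 1521 in these fits. With the 6 compared libraries alone the family's count was 0 higher and 5 lower, and 1759 of 26922 genes were called higher. Nitab4.5_0001159g0150 and Nitab4.5_0000923g0080 kept their call in 1 of the 6 fits that left out a KY or YOE library, and Nitab4.5_0002957g0030 in all 6.

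As deposited the wild types differed in more of the family than YOE and KY did (36.6% against 12.7% of tested genes called). After median scaling they differed in fewer (27.1% against 38.6%). Calls over all genes had the same order on each scale. They were 8441 against 5721 of 31311 as deposited, and 7841 against 10876 of 31064 after scaling. In K326 minus KY 25 of 71 were called higher and 1 lower, where 24.0% of all tested genes were called higher and 2.99% lower. After median scaling 13 of 70 were higher and 6 lower, against 12.3% and 13.0% of all genes. Without K326 replicate 2, KY replicate 1 or KY replicate 3 the 26 calls as deposited fell to 10, 11 and 12. Calls over all genes fell from 8441 to 3013, 3111 and 3579 in the same order. In YOE minus K326, which shares libraries with the comparisons above, 0 were called higher and 20 lower (1.89% and 36.9% of all genes), and after median scaling 2 higher and 6 lower (5.59% and 4.73%). Those 20 calls became 9 without K326 replicate 2, 7 without YOE replicate 2 and 36 without YOE replicate 3. Over all genes 12143 calls became 2742, 3326 and 18055 in the same order.

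**Figure D4:**
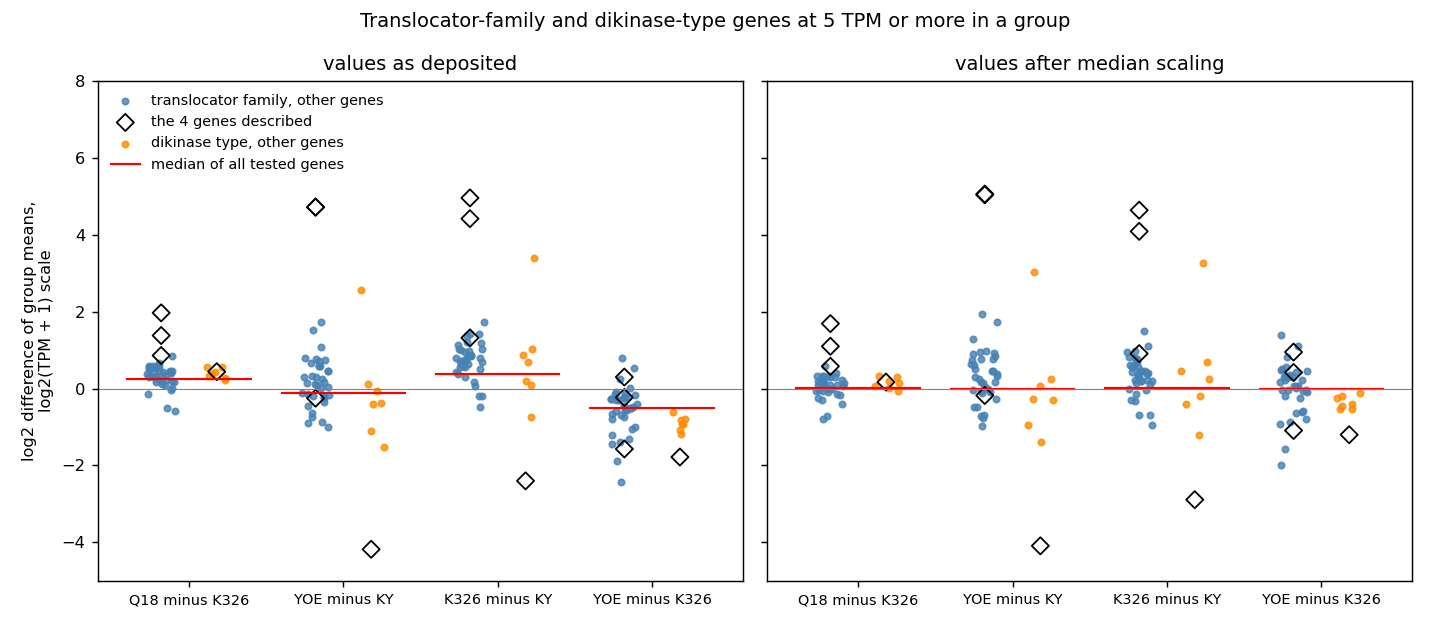
Log2 differences of group means for translocator-family and dikinase-type genes that reached 5 TPM in a group, as deposited (left) and after median scaling (right); diamonds are the 4 genes described, dots are other genes and red lines are medians over all tested genes. In YOE minus KY the pair of translocators lay near 4.72 and the dikinase gene at -4.18 as deposited, and the other genes lay between -1.51 and 2.56.

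The dikinase gene Nitab4.5_0000059g0230 was highest in KY, where the translocator pair was lowest, though its sign in Q18 minus K326 was that of the pair. It stood at 105, 124 and 108 TPM in KY. In K326 it stood at 14.2, 26.1 and 22.9 TPM, and in Q18 at 26.5, 32.8 and 25.3 TPM. In YOE it stood at 9.03, 3.23 and 4.74 TPM. KY lay above every other library, YOE lay below every other library, and K326 and Q18 overlapped. The means were 112 ± 10.1 TPM in KY, 28.2 ± 4.05 in Q18, 21.1 ± 6.17 in K326 and 5.67 ± 3.01 in YOE (SD, n = 3).

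As a description of the contrast that chose it, YOE minus KY was -4.18 on the log2(TPM + 1) scale, and from -4.52 to -3.90 with each library left out. K326 minus KY was -2.40 and YOE minus K326 was -1.78; they share libraries with it. After median scaling these were -4.09, -2.89 and -1.20, and the order of the groups held, with YOE at 12.5, 6.26 and 5.47 and K326 at 15.4, 20.0 and 21.3. Summed leaf mesophyll genes were 42613 to 53850 TPM in KY and 31900 to 33424 in YOE. In K326 they were 38004 to 55981 TPM, a range that overlapped that of KY. After scaling the ranges of KY, K326 and YOE overlapped (50088 to 73286, 33784 to 52004 and 36781 to 64806). The part of the mesophyll genes in these differences was not tested.

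Q18 and K326 took no part in choosing the dikinase gene. Q18 minus K326 was 0.44 (SE 0.29, 95% interval -0.17 to 1.04, limma adjusted p = 0.555), and 0.17 after median scaling (adjusted p = 0.914). The difference was thus within the spread between replicates, and the interval allows a rise of up to 1.04 on this scale.

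One further gene, Nitab4.5_0010477g0010, has the same dikinase and phosphoenolpyruvate-utilising domains. It stood at 73.5, 85.0 and 71.7 TPM in KY and at 62.0, 96.8 and 89.8 TPM in K326. In Q18 it stood at 102, 108 and 76.6 TPM, and in YOE at 45.6, 23.1 and 40.9 TPM. As deposited the wild types overlapped for this gene, while YOE lay below all other libraries. After median scaling KY (97.6 to 100) lay above K326 (67.1 to 83.4), a log2 difference K326 minus KY of -0.41 that did not pass the test (limma adjusted p = 0.0706). YOE minus KY was -1.10 (limma adjusted p = 0.00649; after median scaling -0.94, adjusted p = 8.7e-04). The share of the pair's TPM held by Nitab4.5_0000059g0230 was 58.8 to 60.2% in KY, 18.6 to 21.3% in K326, 20.5 to 24.8% in Q18 and 10.4 to 16.5% in YOE. Summed over both genes the level was 189 ± 17.1 TPM in KY, 104 ± 24.5 in K326, 124 ± 19.9 in Q18 and 42.2 ± 14.5 in YOE (SD, n = 3).

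The dikinase search held 8 genes, and all 7 besides the one described passed the filter. In Q18 minus K326 limma called 0 of 7, with 1 at an unadjusted p under 0.05, where 0.0128% of all genes were called higher. In YOE minus KY 1 was called higher and 2 lower, on both scales, where 6.76% and 11.5% of all genes were as deposited and 17.7% and 17.3% after scaling. In K326 minus KY 3 were called higher and 1 lower, on both scales, against 24.0% and 2.99% as deposited and 12.3% and 13.0% after scaling. Without KY replicate 1, KY replicate 3 or K326 replicate 3 the 4 calls fell to 2. Calls over all genes fell from 8441 to 3111, 3579 and 5895 in the same order. In YOE minus K326 0 were higher and 6 lower as deposited (36.9% of all genes were lower). After median scaling 1 was called lower (4.73% of all genes). As deposited 1 was called without K326 replicate 2 or YOE replicate 2, and 3 without K326 replicate 3. Calls over all genes fell there from 12143 to 2742, 3326 and 5092.

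A pair with a starch-type carbohydrate-binding module beside the dikinase domain, the make-up of enzymes that phosphorylate starch, split between the wild types. Nitab4.5_0001693g0060 was listed at 0, 0.1 and 0 TPM in KY and at 6.59, 12.8 and 11.0 TPM in K326. It stood at 6.32, 4.03 and 5.19 TPM in YOE, a log2(TPM + 1) difference from KY of 2.56 (limma adjusted p = 2.3e-06). The other gene, Nitab4.5_0012294g0010 stood at 21.0, 20.3 and 19.7 TPM in KY and 7.77, 4.66 and 7.46 TPM in YOE, a difference of -1.51 (limma adjusted p = 2.8e-04). The first gene was thus lower in KY than in K326 and YOE, and the second was higher in KY than in YOE. In K326 minus KY limma called the first gene higher and the second lower, on both scales.

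Dikinase is switched by a regulatory protein that adds and removes phosphate, and 2 genes are described as putative regulatory proteins. Nitab4.5_0003738g0050 averaged 5.82 TPM in KY, 10.2 in K326, 15.4 in Q18 and 4.45 in YOE. Nitab4.5_0006795g0010 averaged 1.84, 4.89, 7.71 and 2.12 TPM in the same order. Neither passed in YOE minus KY (log2 differences -0.38 and 0.12, limma adjusted p = 0.371 and 0.778). The 95% intervals of these differences were -0.96 to 0.19 and -0.39 to 0.64.

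Enzymes that make or use phosphoenolpyruvate and pyruvate (68 genes, 47 tested) held 1 gene called higher and 10 lower in YOE minus KY, where 6.76% and 11.5% of all genes were. After median scaling 9 were higher and 13 lower, where 17.7% and 17.3% of all genes were, so the higher calls were near the overall share. Among those lower were Nitab4.5_0004241g0030, a malic enzyme, which turns malate into pyruvate (111 ± 12.3 TPM in KY, 41.2 ± 6.37 in YOE, log2 difference -1.41, limma adjusted p = 1.1e-04), and Nitab4.5_0001524g0030, a pyruvate kinase, which turns phosphoenolpyruvate into pyruvate (18.6 ± 0.741 and 5.17 ± 1.78 TPM, -1.71, adjusted p = 1.5e-04). The malic enzyme was also lower in K326 than in KY, by -0.95 (limma adjusted p = 0.00315), as the dikinase gene was. The list's median in YOE minus KY was -0.08 as deposited, against -0.11 over all genes.

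The shikimate pathway, which starts from phosphoenolpyruvate in the plastid and leads to the aromatic amino acids (41 genes, 40 tested), held 4 genes called higher and 11 lower in YOE minus KY (6.76% and 11.5% of all genes), and 4 and 14 after median scaling (17.7% and 17.3%). Both genes named are DAHP synthetases, the entry enzyme that takes up phosphoenolpyruvate: Nitab4.5_0021029g0010 ranged from 149 to 197 TPM in KY and from 43.2 to 86.2 in YOE (-1.56, limma adjusted p = 5.2e-04), and Nitab4.5_0000743g0100 averaged 127 ± 22.0 and 43.7 ± 16.6 TPM (-1.56, adjusted p = 5.3e-04). Their levels in K326 and Q18 lay between, at 107 and 112 TPM and at 73.3 and 76.5 TPM. The list's median was -0.43, against -0.11 over all genes. The leaf mesophyll list moved the same way, with 2 of 98 tested genes called higher, 20 lower and a median of -0.50 (after scaling 2, 10 and -0.33), and its part was not tested.

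Sucrose synthesis, which uses exported triose phosphate in the cytosol (35 genes including plastid-type fructose bisphosphatases, 32 tested), held 0 genes called higher and 16 lower in YOE minus KY (6.76% and 11.5% of all genes), and 2 and 17 after median scaling (17.7% and 17.3%). Its median was -0.60 against -0.11 over all genes, and -0.44 against -0.01 after scaling. The leaf mesophyll list, with medians of -0.50 and -0.33, moved with this list too, and its part was not tested. The named pair are fructose-1,6-bisphosphatases, which release phosphate from fructose bisphosphate: Nitab4.5_0017865g0020 averaged 31.0 ± 2.54 TPM in KY and 9.21 ± 0.727 in YOE (-1.65, limma adjusted p = 5.8e-05), and Nitab4.5_0007025g0040 averaged 15.0 ± 1.46 and 3.23 ± 0.850 TPM (-1.94, adjusted p = 1.3e-04). Other envelope carriers (23 genes, 18 tested) held 0 higher and 3 lower (6.76% and 11.5% of all genes), and 0 and 2 after scaling (17.7% and 17.3%), so the share lower was near or under that of all genes. The named genes are of the sodium/sulphate symporter type, a group that includes the plastid dicarboxylate carriers: Nitab4.5_0000143g0160 averaged 53.2 ± 9.48 TPM in KY and 16.3 ± 4.70 in YOE (-1.67, limma adjusted p = 3.1e-04), and Nitab4.5_0003626g0040 averaged 11.6 ± 4.16 and 3.92 ± 2.19 TPM (-1.39, adjusted p = 0.0165). The latter lost its call without KY replicate 2, YOE replicate 2 or YOE replicate 3 (adjusted p up to 0.0718).

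In Q18 minus K326 limma called 0 genes of these lists, with 5 phosphoenolpyruvate and pyruvate enzymes, 1 shikimate, 2 sucrose and 5 carrier genes at an unadjusted p under 0.05. Over all 31311 tested genes limma called 6 in that contrast (0.0128% higher, 0.00639% lower), so counts of 0 in lists of this size say nothing about them. In K326 minus KY the calls were 11 higher and 1 lower, 7 and 2, 4 and 3, and 0 and 0 for the enzymes (47 tested), shikimate (40), sucrose (32) and carrier (18) lists, where 24.0% and 2.99% of all genes were called. After median scaling they were 0 and 8, 3 and 13, 0 and 16, and 0 and 4, where 12.3% and 13.0% of all genes were called.

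The genes with patterns most like each member, by Pearson r over 12 libraries among 15229 candidates, were of mixed description. For Nitab4.5_0001884g0050 they were a heat shock transcription factor-type gene, Nitab4.5_0006852g0070 (r = 0.980), at 1.29 TPM in KY, 3.47 in K326, 10.6 in Q18 and 1.09 in YOE, a homeobox leucine zipper-type gene, Nitab4.5_0007907g0020 (r = 0.966), and a vacuolar sorting-type gene, Nitab4.5_0000178g0040 (r = 0.966). Beside each other, the translocator pair had Nitab4.5_0007992g0040, a tetratricopeptide repeat gene (r = 0.991 and 0.979), at 5.01 TPM in KY, 90.5 in K326, 148 in Q18 and 86.9 in YOE. Nitab4.5_0007532g0010, described as a potassium transporter, followed Nitab4.5_0000006g0100 (r = 0.988) with 0.0467 TPM in KY and 8.55 in K326. For the dikinase gene they were Nitab4.5_0000373g0150 (tetratricopeptide repeat, r = 0.988), Nitab4.5_0000135g0030 (zein-binding domain, r = 0.988) and Nitab4.5_0013238g0010 (ACT domain, r = 0.987). Libraries of a group share their genotype, so these r values mostly compare 4 group levels.

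Gene numbers in the identifiers give neighbours on a scaffold, without distances. Nitab4.5_0002137g0130, numbered next to Nitab4.5_0002137g0140 and described as transmembrane protein 6/97, had a like pattern (r = 0.981), at 1.71 ± 0.213 TPM in KY, 14.3 ± 6.49 in K326, 24.4 ± 3.79 in Q18 and 11.9 ± 5.58 in YOE (SD, n = 3). Both translocators have an ionotropic glutamate receptor-type gene within 2 numbers. Nitab4.5_0002137g0150 averaged 6.69, 12.5, 15.0 and 20.5 TPM in KY, K326, Q18 and YOE, and Nitab4.5_0000006g0120 averaged 2.05, 4.21, 4.95 and 5.74 TPM. In KY both stood above the translocator beside them. Beside the dikinase gene, Nitab4.5_0000059g0220, an RNA methyltransferase-type gene, averaged 2.92, 4.16, 4.98 and 2.34 TPM, with no excess in KY. The numbered neighbours of Nitab4.5_0001884g0050 did not pass 0.64 TPM in any library.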

How the data were processed

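RNA-seq of leaves was deposited as 1 table of 69500 genes by 12 libraries. The values the authors deposited were read as TPM, since the submitters' processing notes name Salmon and StringTie. No unit stands in the header and the sums differ between libraries, so the values may be FPKM. Versions, settings and genome build are not given in the sources used here. Groups came from the sample labels. limma 3.58.1 in R 4.3.3 (trend and robust settings) was fitted to log2(TPM + 1) with 1 mean per group over all 12 libraries, for 31311 genes at 1 TPM or more in at least 3 libraries, with Benjamini-Hochberg adjustment and a threshold of 0.05; it was tested on simulated data. Fold differences on this scale understate low genes. Median scaling divided each library by the median of its gene-wise ratios to the mean over libraries, from 20130 genes at 1 TPM or more in all libraries, and left 31064 genes to test. Tables were handled with pandas 2.3.3 and drawn with matplotlib 3.10.9. No pair of libraries was identical.

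The members and lists were chosen with earlier results of these data known, and list patterns were trimmed after gene descriptions were read. Named genes were the 4 genes, family and dikinase genes with a mean of 5 TPM or more in a group (of the family, those called are named), the 2 smallest p in YOE minus KY of each other list, the 3 most alike genes and numbered neighbours. Alternatives were median scaling, quantile normalization, other filters and pseudocount, the compared libraries alone, a replicate block and leaving out each library. The identifiers matched 0 entries of the RefSeq table, so no positions are given.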

Additional observations from a re-analysis of the deposited data

How the results depend on the processing

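Of the tests on the 4 genes, those of Nitab4.5_0000006g0100 and Nitab4.5_0000059g0230 kept their direction and missed the threshold in all 13 settings run. Nitab4.5_0002137g0140 in Q18 minus K326 passed only when the 6 compared libraries were fitted alone (1.38). Nitab4.5_0001884g0050 in YOE minus KY turned to 0.17 without YOE replicate 2. Leaving out each library gave -0.46 to 0.17 for Nitab4.5_0001884g0050, 0.58 to 1.16 for Nitab4.5_0000006g0100, 1.19 to 1.67 for Nitab4.5_0002137g0140 and 0.19 to 0.61 for Nitab4.5_0000059g0230.

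Counts of called genes moved more. For the other translocator-family genes, the 9 calls in YOE minus KY were 27 with median scaling, 23 with quantile normalization, 5 with the 6 compared libraries alone and 4 to 13 with a library left out. Their 26 calls of 71 tested in K326 minus KY were 17 of 71 with quantile normalization and 17 of 115 with no filter. With a mean of at least 5 TPM they were 10 of 23. Over all genes that setting called 5147 of 13761, against 8441 of 31311 in the main fit. With a library left out the family's calls ran from 10 to 25. Their 20 calls of 71 in YOE minus K326 were 8 of 70 with median scaling and 9 of 71 with quantile normalization. They were 6 of 23 with a mean of at least 5 TPM, and 7 to 36 with a library left out. For the dikinase type, the 6 calls in YOE minus K326 were 1 with median scaling and 3 with quantile normalization, and 1 to 7 with a library left out; K326 minus KY ran from 2 to 4 and YOE minus KY stayed at 3. For the 4 other lists together, 28 calls of 137 tested in K326 minus KY were 44 with median scaling and 44 with quantile normalization. They were 16 of 87 with a mean of at least 5 TPM, and 7 to 27 with a library left out. Their 58 calls in YOE minus K326 were 13, 11 and 20 with median scaling, quantile normalization and the 6 compared libraries alone, and 13 to 70 with a library left out. In YOE minus KY they ran from 24 to 43, and in Q18 minus K326 from 0 to 1 (1 without Q18 replicate 1). The lists' counts moved by over 1.5 times without KY replicate 1 (24 in YOE minus KY, 7 in K326 minus KY), KY replicate 2 (27 in YOE minus KY), KY replicate 3 (28 and 10), K326 replicate 2 (7 in K326 minus KY, 13 in YOE minus K326), K326 replicate 3 (26 in YOE minus K326) and YOE replicate 2 (23 in YOE minus K326). Calls over all tested genes moved as well. Without KY replicate 1 they fell from 8441 to 3111 in K326 minus KY and from 5721 to 3310 in YOE minus KY. In YOE minus K326 they went from 12143 to 2742 without K326 replicate 2 and 18055 without YOE replicate 3. The cause of these moves was not tested.

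The labels give all groups the replicate numbers 1 to 3, but same-numbered libraries did not deviate together in every pair (correlations of deviations from -0.22 to 0.319), so the numbers were not taken as pairs. The raw-read names number some KY and YOE libraries differently from the labels, so the correlations and the block describe the labels' numbers only. With the replicate block the translocator-family calls in YOE minus KY were 7 and the adjusted p of the tested members in Q18 minus K326 was 0.628; no call on the 4 genes changed. TPM keeps no depth, so the error of low values, such as the translocators in KY, cannot be split into counting and other error.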
